A study of Mus musculus with 4 samples.

Results

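TRBV20, TRBV23, TRBV24, TRBV26 and TRBV30 are 5 variable (V) segments of the mouse T-cell receptor β locus that lie toward its 3′ end. The 5 segments together made up a small share of in-frame clonotypes here, most of it TRBV26. They were chosen by name: a clonotype belonged to one of them when its first-listed V hit was that segment. All 5 were listed, among 26 TRBV segments in all. They accounted for 9103 of 238470 in-frame clonotypes (3.82%) and for 986 out-of-frame clonotypes (4.41% of that class).

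The study sequenced T-cell receptor β transcripts of CD8+ T cells sorted as live CD45+ CD3+ CD8+ cells from livers of Vsig4-/- and WT mice 14 days after the injection of MC38, a mouse colon carcinoma line (the labels call the liver metastases melanomas). Vsig4 encodes a complement receptor of liver macrophages, and the labels give the genotypes as VSIG4 KO and WT, with no strain, sex, age or line. There were 2 Vsig4-/- and 2 WT libraries. Vsig4 itself was not measured, and no label ties a library to its own animal, so each p-value measures only how these libraries spread, which may be technical.

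A β chain gene is built in the thymus by joining 1 V, 1 D and 1 J segment, with bases trimmed and added at the joins. The join forms the CDR3 loop, which touches the peptide that the receptor recognises. Joins that keep the reading frame can make a receptor, and are then subject to selection in the thymus. Joins that lose the frame are carried along by cells whose other allele is in frame, so they serve as an unselected record of how often a segment is rearranged and transcribed. V segments also carry older names. TRBV20 is Vβ15, TRBV23 is Vβ20, TRBV24 is Vβ17, TRBV26 is Vβ3 and TRBV30 is Vβ18. Vβ17 is known in mice for alleles that differ in function between inbred strains, and Vβ3 for its removal from the repertoire of mice that carry certain mammary tumour virus superantigens.

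On chromosome 6 (positions from RefSeq's GRCm38.p6, to which mm10 corresponds) TRBV20 lies at chr6:41188273-41188977, TRBV23 at chr6:41216073-41216526, TRBV24 at chr6:41218091-41218557, TRBV26 at chr6:41227525-41227913 and TRBV30 at chr6:41281376-41281990. All 5 are annotated there as V segments, as opposed to pseudogenes, and their annotated ends lie between 252 and 345 kb from the start of TRBJ1-1. The coding ends that each segment brings into CDR3 are shown because CDR3 length and frame both start from them. Each was read from the untrimmed joins in the deposited tables, from the conserved cysteine codon on, and the capitals mark the bases left after the last whole codon.
TRBV20: tgtggtgctaggGA
TRBV23: tgctccagcagtcaaTC
TRBV24: tgtgccagcagtctgTA
TRBV26: tgtgccagcagtctgTC
TRBV30: tgtagttctagaGA
TRBV20 and TRBV30 bring 14 bases, and the other three bring 17. TRBV24 and TRBV26 share every whole codon, and their ends differ only by A17C, written as the TRBV24 base, the position counted from the first base of the cysteine codon, and the TRBV26 base. TRBV20 and TRBV30 differ at 3 bases, G4A, G7T and G12A in the same notation with the TRBV20 base first. The TRBV24 end was read from only 2 untrimmed entries, and the TRBV26 end was seen in 398 of 409.

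The libraries held 1000179 and 1269480 counts in Vsig4-/- mice and 916335 and 901567 counts in WT mice, over 52227 to 81858 table entries each. In-frame clonotypes numbered 47017 and 70126 in Vsig4-/- libraries and 47558 and 73769 in WT libraries, against 4993 and 4922 out-of-frame clonotypes in Vsig4-/- and 4778 and 7693 in WT libraries. Vsig4-/- library 2 stood apart in 2 of these totals. It had 14.2 in-frame clonotypes per out-of-frame clonotype, where the other three had 9.42 to 9.95, and 33.03% of its in-frame clonotypes had 1 count, where the others had 17.6% to 21.4%. Shares of a segment below are percentages of all clonotypes of the same frame in that library, and 95% Wilson intervals cover counting error only.

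TRBV26 was the most used of the 5. It took 2.69% (95% interval 2.54 to 2.84) and 2.66% (2.54 to 2.78) of in-frame clonotypes in Vsig4-/- libraries, against 2.64% (2.50 to 2.79) and 2.70% (2.59 to 2.82) in WT libraries. The 4 values lay closer together than their counting intervals are wide. TRBV23 took 0.591% (0.526 to 0.665) and 0.640% (0.584 to 0.702) in Vsig4-/- libraries, against 0.534% (0.473 to 0.604) and 0.569% (0.518 to 0.626) in WT libraries. Both Vsig4-/- values were above both WT values, by less than the intervals are wide.

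TRBV20 took 0.438% (0.382 to 0.502) and 0.282% (0.246 to 0.324) in Vsig4-/- libraries, against 0.549% (0.486 to 0.619) and 0.475% (0.427 to 0.527) in WT libraries. Both Vsig4-/- libraries were lower, with library 2 lowest. TRBV30 took 0.128% (0.0992 to 0.164) and 0.0984% (0.0778 to 0.125) in Vsig4-/- libraries, against 0.177% (0.143 to 0.219) and 0.122% (0.0993 to 0.150) in WT libraries, and the genotypes overlapped. TRBV24 was listed in frame 3 times in 1 and 1 time in the other Vsig4-/- library and 2 and 3 times in WT libraries, between 0.00143% and 0.00638% of clonotypes.

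**Figure D1:**
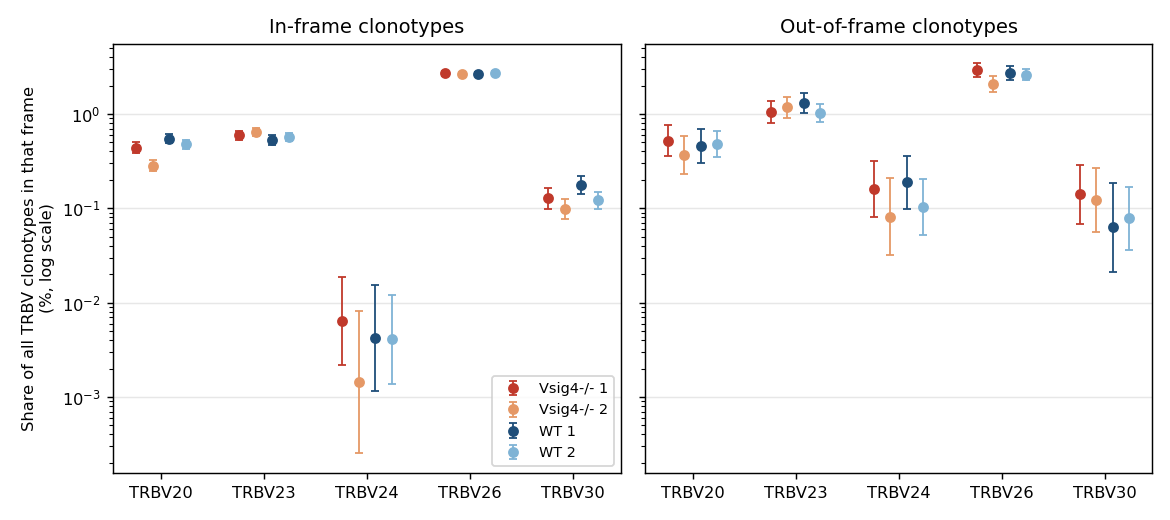
Share of each segment (% of all TRBV clonotypes of that frame, log scale) among in-frame (left) and out-of-frame (right) clonotypes in the 2 Vsig4-/- and 2 WT libraries, with 95% Wilson intervals that cover counting error. TRBV24 lies at 0.00638% or lower among in-frame clonotypes and between 0.0813% and 0.188% among out-of-frame clonotypes, and TRBV26 stays between 2.07% and 2.92% in both.

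Averaged over the 4 libraries, the in-frame order was TRBV26 (2.67% ± 0.0283, SD, n = 4), TRBV23 (0.584% ± 0.0444), TRBV20 (0.436% ± 0.112), TRBV30 (0.131% ± 0.0329) and TRBV24 (0.00402% ± 0.00203). TRBV23 and TRBV20 were not separated in every library, since TRBV20 was the higher in WT 1. The other neighbours did not overlap. The 21 other TRBV segments had a median share of 3.76%, and TRBV26 ranked 13 from the lowest of 26, TRBV23 8, TRBV20 7, TRBV30 6 and TRBV24 3. Over the 8 in-frame and out-of-frame log2 shares, the segments most alike were TRBV15 and TRBV23 for TRBV20, TRBV15 and TRBV5 for TRBV23, TRBV2 and TRBV17 for TRBV26, and TRBV20 and TRBV21 for TRBV30 (Euclidean distances 1.40 and 3.001, 2.37 and 2.80, 1.24 and 1.39, and 5.77 and 5.86). For TRBV24 they were TRBV22, which is annotated as a pseudogene, and TRBV21, at the larger distances of 8.31 and 9.34.

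Whether loss of Vsig4 went with another use of these segments was tested with edgeR's quasi-likelihood test over all TRBV segments. None of the 4 members with enough in-frame clonotypes passed at an adjusted p of 0.05, where the background was 0% of 23 segments. TRBV20 was 0.702 times as frequent in Vsig4-/- as in WT libraries (log2 −0.51, SE 0.27, adjusted p = 0.551). TRBV30 had a log2 difference of −0.40 (SE 0.31), TRBV23 one of 0.16 (SE 0.15) and TRBV26 one of −0.001 (SE 0.086), with adjusted p-values of 0.551, 0.551 and 0.992. No segment of the 23 had an unadjusted p under 0.05 and DESeq2 called 0. Without Vsig4-/- library 1 the test called 13 of the 23 segments, none of them a member, and without Vsig4-/- library 2 it called 1. The members' median log2 difference was −0.20, against −0.09 over all 23. Library groups did not overlap for TRBV20 and TRBV23, 2 of 4 members, and such a separation was seen in 43.5% of all 23.

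By counts, which add clone size to the number of clonotypes, the mean share of each member was smaller. So was the median of the 21 other segments, at 1.98% by counts against 3.76% by clonotypes. Ranked by counts from the lowest of 26, TRBV26 was 14, TRBV23 11, TRBV20 6, TRBV30 5 and TRBV24 3. TRBV26 held 0.943% and 1.13% of in-frame counts in Vsig4-/- libraries, against 1.12% and 1.48% in WT libraries. The WT 2 value included 1 clonotype of 2610 counts, 20.6% of the segment, and was 1.17% without it. TRBV23 held 0.392% and 0.602% of counts in Vsig4-/- libraries, against 0.422% and 0.466% in WT libraries. TRBV20 held 0.0422% and 0.0296% in Vsig4-/- libraries, against 0.0551% and 0.0832% in WT libraries, and TRBV30 held 0.0118% and 0.0182%, against 0.0199% and 0.0216%. Both segments were lower in each Vsig4-/- library than in either WT library, and the genotypes' libraries did not overlap, in either direction, for 50% of all 24 segments tested. None of the 5 members passed edgeR's test by counts (smallest adjusted p among them 0.476), where the background was 0% of 24. Of the 24, 4 had an unadjusted p under 0.05 and DESeq2 called 1, none of these members by either measure.

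The comparison of frames asked which segments were less or more frequent among in-frame than among out-of-frame clonotypes of the same library. Of the 5 members, TRBV23 and TRBV24 were lower in frame, and TRBV20, TRBV26 and TRBV30 did not pass. The background was 62.5% of 24 segments called, with 33.3% lower and 29.2% higher in frame, so 2 of 5 called is below the rate of all segments.

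TRBV24 had 3 and 1 in-frame against 8 and 4 out-of-frame clonotypes in the Vsig4-/- libraries, and 2 and 3 in-frame against 9 and 8 out-of-frame clonotypes in the WT libraries. Out-of-frame clonotypes outnumbered in-frame clonotypes in every library, the reverse of the libraries as a whole. Its in-frame share was 30.0 times lower than its out-of-frame share (log2 −4.91, SE 0.38, edgeR adjusted p = 1.25e-19). DESeq2 gave a log2 difference of −5.02 with a larger SE of 0.553. TRBV24 had the lowest in-frame to out-of-frame ratio of the 24 segments, 0.306 ± 0.0810 (SD, n = 4), with the next at 0.390 for a segment annotated as a pseudogene, TRBV22. TRBV22 and TRBV21, which lie between TRBV20 and TRBV23 in the locus, had log2 differences of −4.73 and −3.28.

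The 39 TRBV24 entries of the 4 tables, with 55 counts together, comprised 9 in-frame clonotypes, 29 out-of-frame clonotypes and 1 with a stop codon in CDR3. The highest count was 5 and 26 entries had 1 count. Of the 9 in-frame entries, 3 kept 15 or more bases of the segment in CDR3. By the deposited alignment none of the 9 kept the whole end, against 7 of all 39 that did. Among these 7, the Vsig4-/- 2 entry with TRBJ1-5 does not read as the TRBV24 end printed above. The CDR3 of 1 of the 9 was also listed with TRBV13-3 in other entries. Of the 4 entries below, 2 are in frame and have the most counts among the in-frame entries of their libraries (tied with 1 other in Vsig4-/- 1), 1 is out of frame and keeps the full TRBV24 end, and the last is the largest entry of all 39. Capitals mark the bases between the V and the J segment as deposited. In the entry with the full TRBV24 end, the V stretch so marked runs past the end printed above.
TRBV24 with TRBJ1-4, in frame, Vsig4-/- 1, 2 counts: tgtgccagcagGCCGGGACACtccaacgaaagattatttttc
TRBV24 with TRBJ2-3, in frame, WT 2, 2 counts: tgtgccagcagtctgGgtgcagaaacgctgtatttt
TRBV24 with TRBJ2-3, out of frame, Vsig4-/- 2, 2 counts: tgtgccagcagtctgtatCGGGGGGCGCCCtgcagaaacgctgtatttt
TRBV24 with TRBJ2-5, out of frame, Vsig4-/- 1, 5 counts: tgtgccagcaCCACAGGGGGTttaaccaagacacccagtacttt
The first 2 have 42 and 36 bases, whole codons, and the last 2 have 49 and 44 bases. None of the 29 out-of-frame TRBV24 entries was flagged as 1 inserted or deleted base away from a larger entry. A flag needed a TRBV24 entry of the same library and J segment with 20 times the counts. No TRBV24 entry had more than 5 counts, so the check could not flag any.

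TRBV23 had 5.35 and 7.74 in-frame clonotypes per out-of-frame clonotype in Vsig4-/- libraries, against 4.03 and 5.32 in WT libraries. Each was below its library's ratio, at 0.568 and 0.543 times that ratio in Vsig4-/- and 0.405 and 0.554 times in WT libraries. Its out-of-frame share was 1.04% and 1.18% in Vsig4-/- and 1.32% and 1.03% in WT libraries. It was the second most used of the 5 out of frame in every library, and in frame by the mean over libraries. The in-frame share was 1.94 times lower than the out-of-frame share (log2 −0.95, SE 0.13, adjusted p = 4.83e-10). Other segments that were lower in frame were TRBV31 (log2 −2.02, SE 0.05), TRBV4 (−0.995, SE 0.06), TRBV2 (−0.68, SE 0.08) and TRBV1 (−0.26, SE 0.05). Of the other neighbours toward the 3′ end, TRBV29, which like TRBV22 is annotated as a pseudogene, was higher in frame (0.73, SE 0.06). TRBV19 did not pass (0.08, SE 0.07).

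TRBV26 had ratios of 8.65 and 18.2 in Vsig4-/- libraries, against 9.59 and 9.92 in WT libraries, and the difference between its frames did not pass (log2 0.05, SE 0.08, adjusted p = 0.611). The high value belonged to the Vsig4-/- library in which all segments together also had the highest ratio. TRBV20 had ratios of 7.92 and 11 in Vsig4-/- libraries, against 11.9 and 9.46 in WT libraries (log2 −0.07, SE 0.18, adjusted p = 0.726). TRBV30 had 7 and 6 out-of-frame clonotypes in Vsig4-/- libraries and 3 and 6 in WT libraries, and ratios of 8.57 and 11.5, against 28 and 15. With 22 out-of-frame clonotypes in all, its frame difference was not detectable at this depth (log2 0.39, SE 0.31, adjusted p = 0.291).

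**Figure D2:**
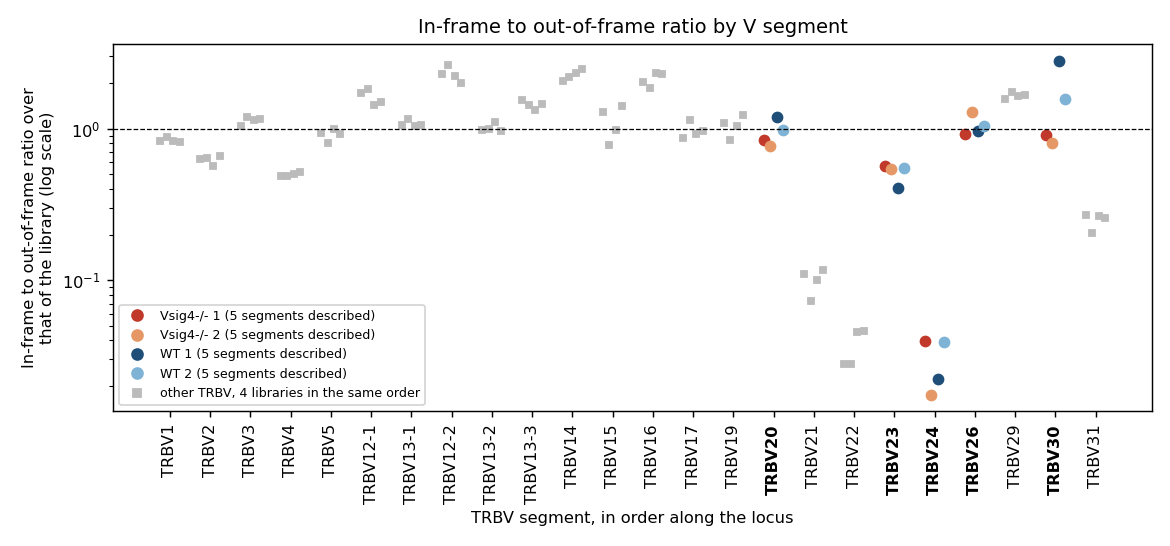
In-frame to out-of-frame ratio of each segment divided by the ratio of its library (log scale), for the 24 segments with out-of-frame clonotypes in every library, in order along the locus. Points run from Vsig4-/- 1 to WT 2 within a segment, coloured for the 5 segments described and grey squares for the others. TRBV23 sits between 0.405 and 0.568 and TRBV24 between 0.0176 and 0.0398, and TRBV20, TRBV26 and TRBV30 scatter around 1.

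The ratio of frames was also compared between genotypes, as a frame by genotype term. None of the 24 segments passed (background 0%, 1 unadjusted p under 0.05, DESeq2 0 calls). Among the members TRBV30 had the largest difference, with a ratio 0.436 times as high in Vsig4-/- as in WT libraries (log2 −1.20, SE 0.33, adjusted p = 0.675). DESeq2 gave TRBV30 a log2 difference of −1.15 with a larger SE of 0.648. The ratios of the genotypes' libraries did not overlap for TRBV23 and TRBV30, 2 of 5 members, and for 20.8% of all 24 segments. Out-of-frame shares alone passed between genotypes in none of the 5 members, where edgeR called 0% of 24 segments, with no unadjusted p under 0.05 and 0 DESeq2 calls.

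Clonotypes of TRBV20 and TRBV30 were small. TRBV20 clonotypes averaged 1.96 and 1.83 counts in Vsig4-/- libraries and 1.85 and 2.04 in WT libraries, where in-frame clonotypes of a library averaged 11.6 to 20.4. TRBV30 clonotypes averaged 1.88 and 3.23 counts in Vsig4-/- libraries and 2.07 and 2.06 in WT libraries. The 3.23 of Vsig4-/- 2 held 1 clonotype of 61 counts, 27.3% of that segment. TRBV26 clonotypes averaged 7.15 and 7.48 counts in Vsig4-/- and 7.81 and 6.35 in WT libraries, and TRBV23 clonotypes 13.5 and 16.5, against 14.6 and 9.52. Against all other segments of the same libraries, limma gave 8.70 times fewer counts per clonotype for TRBV20 (log2 −3.12, SE 0.20, adjusted p = 1.75e-08), 7.38 times fewer for TRBV30 (−2.88, SE 0.21, 3.42e-08) and 2.35 times fewer for TRBV26 (−1.23, SE 0.19, 5.04e-05). TRBV23 did not pass (−0.33, SE 0.18, adjusted p = 0.114). In this comparison 73.9% of 23 segments passed, 60.9% lower and 13.0% higher than the rest.

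Entries of 1 count made up 55.8% and 59.1% of TRBV20 clonotypes in Vsig4-/- libraries and 58.2% and 63.7% in WT libraries, the highest mean of the 23 segments. For TRBV30 they made up 50% and 42.03% in Vsig4-/- libraries and 47.6% and 41.1% in WT libraries. The low counts were not limited to in-frame clonotypes. Relative to the mean of the library for the same frame, TRBV20 had 0.0962 and 0.105 times the counts per in-frame clonotype in Vsig4-/- and 0.100 and 0.175 times in WT libraries, and 0.200 and 0.235 times per out-of-frame clonotype in Vsig4-/- and 0.222 and 0.252 times in WT libraries. Counted from the lowest of the 23 segments, TRBV20 ranked 1 in frame and 2 out of frame, and TRBV30 ranked 3 in frame and 1 out of frame. Small clonotypes were not particular to these members. TRBV15, TRBV16 and TRBV5 had 0.100 to 0.192, 0.104 to 0.182 and 0.120 to 0.176 times the library's counts per in-frame clonotype. Their entries of 1 count made up 51.9% to 62.2%, 54.0% to 59.75% and 44.4% to 54.05%. Across the 23 segments the in-frame and out-of-frame values went together (Pearson's r 0.959 on the log2 scale, Spearman's rho 0.938), and across the 19 that are not members r was 0.951. Segments share libraries and chemistry, so these are descriptions.

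**Figure D3:**
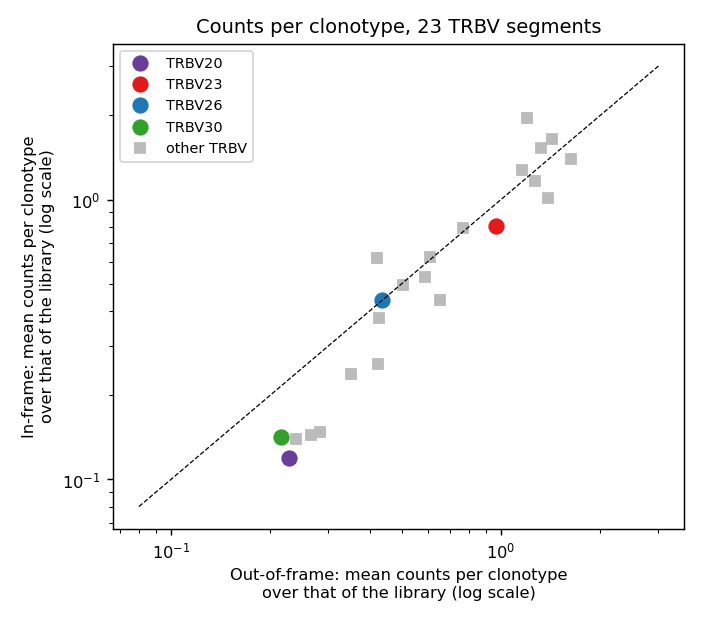
Mean counts per clonotype relative to the library, in frame (vertical) against out of frame (horizontal), both on log scales, each point the mean of 4 libraries for 1 of 23 segments with 10 or more in-frame clonotypes in every library. The dashed line marks equal values. TRBV20 and TRBV30 lie at the low end on both axes (0.119 and 0.142 in frame), TRBV26 near 0.437 on both, and TRBV23 near 0.804 in frame and 0.964 out of frame.

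Counts per clonotype passed between genotypes for none of the 4 members tested (limma, smallest adjusted p among them 0.787, background 0% of 23, 2 unadjusted p under 0.05, none of them a member). The largest TRBV26 clonotypes are shown because each library had a different one. They held 922 and 1371 counts in Vsig4-/- 1 and 2, and 156 and 2610 counts in WT 1 and 2.
TRBV26, Vsig4-/- 1, with TRBJ1-1: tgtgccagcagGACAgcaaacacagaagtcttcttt
TRBV26, Vsig4-/- 2, with TRBJ2-2: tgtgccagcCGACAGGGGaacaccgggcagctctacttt
TRBV26, WT 1, with TRBJ1-2: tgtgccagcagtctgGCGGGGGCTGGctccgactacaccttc
TRBV26, WT 2, with TRBJ2-1: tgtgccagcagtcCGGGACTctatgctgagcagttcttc
The WT 2 clonotype was also listed with 27 counts in WT 1 and the WT 1 clonotype with 3 counts in WT 2, and none of the 4 was listed in a library of the other genotype.

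The largest TRBV23 clonotypes had 585 counts in Vsig4-/- 1 and 1476 counts in Vsig4-/- 2, against 267 counts in WT 1 and 143 counts in WT 2. They held 15.6% and 20.0% of the segment's counts in Vsig4-/- libraries, against 7.22% and 3.58% in WT libraries. Without its largest clonotype TRBV23 held 0.331% and 0.482% of counts in Vsig4-/- libraries, against 0.392% and 0.450% in WT libraries. The largest TRBV20 clonotypes had 23 and 18 counts in Vsig4-/- 1 and 2, against 18 and 78 counts in WT 1 and 2. The largest TRBV30 clonotypes had 5 counts (3 clonotypes at that count) and 61 counts in Vsig4-/- 1 and 2, against 7 counts (2 clonotypes) and 7 counts in WT 1 and 2. The 3 clonotypes that stood furthest above the rest of their segment in TRBV20, TRBV23 and TRBV30 are shown, chosen after their values were seen.
TRBV20, WT 2, with TRBJ2-2, 78 counts: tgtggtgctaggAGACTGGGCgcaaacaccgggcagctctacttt
TRBV23, Vsig4-/- 2, with TRBJ2-4, 1476 counts: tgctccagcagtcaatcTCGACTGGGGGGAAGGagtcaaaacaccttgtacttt
TRBV30, Vsig4-/- 2, with TRBJ2-7, 61 counts: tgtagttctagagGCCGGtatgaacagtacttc
The TRBV20 clonotype was also listed with 1 count in WT 1, and the other 2 were listed in their own library only. The TRBV23 clonotype keeps all 17 bases of its germline end.

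CDR3 was short in TRBV20 and TRBV30, long in TRBV23 and close to the rest in TRBV26. TRBV30 averaged 12.9 and 13.0 amino acids in Vsig4-/- libraries and 13.1 and 12.8 in WT libraries. TRBV20 averaged 13.0 in both Vsig4-/- libraries and 13.1 and 13.0 in WT libraries. TRBV23 averaged 14.2 and 14.4 in Vsig4-/- libraries and 14.3 and 14.2 in WT libraries, and TRBV26 13.7 and 13.8 in Vsig4-/- libraries and 13.9 and 13.8 in WT libraries.

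Against all other segments of the same library, TRBV30 was 1.02 residues shorter (SE 0.053, limma adjusted p = 7.15e-05), TRBV20 0.918 shorter (SE 0.027, 1.71e-05) and TRBV26 0.129 shorter (SE 0.026, 0.00827), each in 4 of 4 libraries. TRBV23 was 0.343 residues longer in 4 of 4 libraries (SE 0.045, adjusted p = 0.0018). The background was 78.3% of 23 segments, 43.5% shorter and 34.8% longer. TRBV30 and TRBV20 had the 2 lowest means of the 23, and they are also the 2 segments that bring 14 germline bases, as the ends printed above show. The 12 segments that bring 17 bases averaged 13.5 to 14.7 residues, and TRBV31, which brings 13 bases, averaged 13.7. Mean length passed between genotypes for no member (limma, smallest adjusted p among them 0.754, background 0% of 23, no unadjusted p under 0.05).

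**Figure D4:**
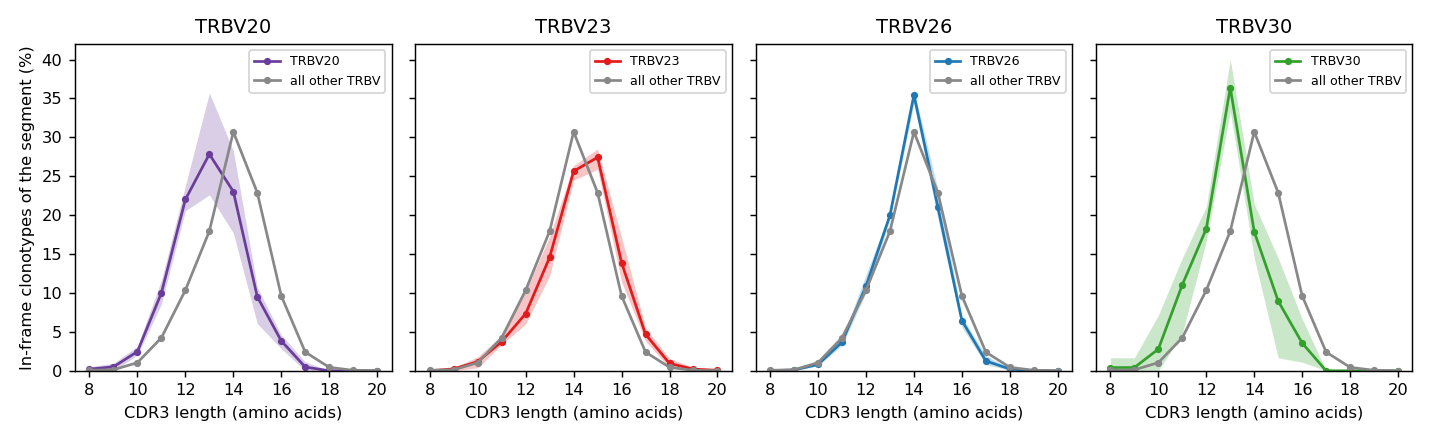
CDR3 length (amino acids) of in-frame clonotypes, as the percentage of each segment's clonotypes, for TRBV20, TRBV23, TRBV26 and TRBV30 (coloured) and the 21 TRBV segments outside the 5 described (grey). Lines are means of 4 libraries and bands run from the lowest to the highest library. TRBV20 and TRBV30 peak at 13 residues with 27.8% and 36.4%, TRBV26 at 14 with 35.5% and TRBV23 at 15 with 27.4%, where the other segments peak at 14 with 30.7%.

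The J segments of the β locus come in 2 clusters, TRBJ1 and TRBJ2, each behind its own D segment. TRBV30 was joined to TRBJ2 segments in 80.0% and 79.7% of in-frame clonotypes in Vsig4-/- libraries and 82.1% and 80.0% in WT libraries, the highest mean of the 23 segments. TRBV26 was joined to them in 62.3% and 62.9% in Vsig4-/- libraries and 61.5% and 63.4% in WT libraries, the second lowest mean. Both differed from all other segments (log2 odds 0.88, SE 0.045, limma adjusted p = 7.59e-05, and −0.40, SE 0.046, 0.000913), in 4 of 4 libraries each. TRBV20 had 68.4% and 67.7% in Vsig4-/- libraries and 70.9% and 64.9% in WT libraries, and TRBV23 had 68.7% and 67.3%, against 70.1% and 70.2%. Neither passed (adjusted p = 0.562 and 0.539), where the background was 73.9% of 23 segments. Among out-of-frame clonotypes of the 4 libraries together, TRBJ2 was joined in 68.8% (64.9 to 72.4) for TRBV26, against 62.7% (61.5 to 63.9) in frame. For TRBV30 it was 54.5% (34.7 to 73.1) of 22 out-of-frame clonotypes, against 80.5% (75.7 to 84.6) in frame. These intervals pool libraries and cover counting error only.

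Single J segments were compared with edgeR for 23 V segments and 12 J segments, each V against all others with the library as a block. TRBV26 differed at 8 of 12 J segments, TRBV20 at 5, TRBV30 at 3 and TRBV23 at 0, where the background was 42.8% of 276 pairs. These 16 calls of 48 pairs were 5 without WT 2, 8 without Vsig4-/- 1, 9 without WT 1 and 7 without entries of 1 count, and the TRBV26 and TRBV30 pairs named next were called under each alternative run. TRBV26 was joined to TRBJ1-2 in 9.11% and 9.45% of clonotypes in Vsig4-/- libraries and 8.76% and 9.08% in WT libraries, where the segments outside the 5 had 6.07% to 6.80%. The log2 difference was 0.50 (SE 0.056, adjusted p = 0.000165). It was also higher for TRBJ1-3 (log2 0.52, SE 0.099, adjusted p = 0.0035) and lower for TRBJ2-5 (−0.50, SE 0.062, 0.000335) and TRBJ2-3 (−0.57, SE 0.094, 0.0016). TRBV30 was joined to TRBJ1-4 in 1.67% and 2.90% of clonotypes in Vsig4-/- libraries and 1.19% and 1.11% in WT libraries, 5 clonotypes in all, where the segments outside the 5 had 5.91% to 6.10% (log2 −1.85, SE 0.32, adjusted p = 0.00129). TRBV20 was joined to TRBJ1-6 in 1.94% and 1.01% in Vsig4-/- libraries and 2.30% and 0.857% in WT libraries, 15 clonotypes in all, against 2.89% to 3.32% (log2 −1.03, SE 0.23, adjusted p = 0.00599). The TRBV20 difference was not called without entries of 1 count (adjusted p = 0.429) or without WT 2 (0.110). Out of frame, pooled and untested, TRBV26 had 8.4% TRBJ1-2, 5.3% TRBJ1-3 and 7.9% TRBJ2-3. Segments outside the 5 had 6.3%, 4.4% and 8.8%, the same directions as in frame. Opposite to in frame, TRBV26 with TRBJ2-5 had 14.8% against 12.1%, TRBV20 with TRBJ1-6 5.8% against 3.8%, and TRBV30 with TRBJ1-4 9.1% against 6.3%. The TRBV20 and TRBV30 values rest on 6 and 2 clonotypes. The share joined to TRBJ2 passed between genotypes for no member (limma, smallest adjusted p among them 0.623, background 0% of 23, 2 unadjusted p under 0.05, none of them a member).

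**Figure D5:**
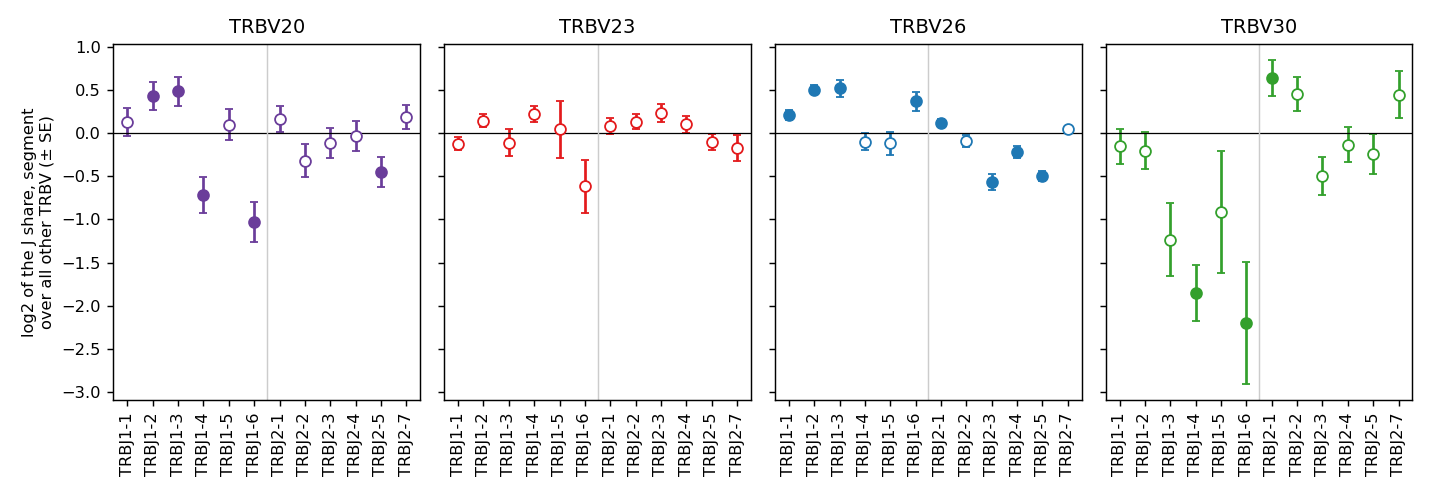
log2 ratio of the share of each of 12 J segments within TRBV20, TRBV23, TRBV26 and TRBV30 to its share within all other TRBV segments (in-frame clonotypes of 4 libraries, edgeR estimate ± an SE derived from its F statistic). Filled points passed an adjusted p of 0.05 over 276 pairs, and the grey line separates TRBJ1 from TRBJ2. TRBV26 lies above 0 at TRBJ1-2 and TRBJ1-3 (0.50 and 0.52) and below 0 at TRBJ2-3 and TRBJ2-5 (−0.57 and −0.50).

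Most clonotypes of these segments were found in 1 library. By CDR3 amino acids with V and J, 10.4% of 5427 TRBV26 clonotypes, 8.65% of 1260 TRBV23 clonotypes, 2.86% of 980 TRBV20 clonotypes, 0.667% of 300 TRBV30 clonotypes and 0 of 9 TRBV24 clonotypes were found in 2 or more libraries. In the 24 segments these shares ran up to 22.3%, and segments with few clonotypes have fewer that could recur. Clonotypes found in all 4 libraries numbered 17 for TRBV26 and 2 for TRBV23. The 2 below are printed because each was in all 4 libraries with 1 nucleotide sequence and had the highest mean share of its segment.
TRBV26 with TRBJ2-1: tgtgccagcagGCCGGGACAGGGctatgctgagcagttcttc
TRBV23 with TRBJ2-1: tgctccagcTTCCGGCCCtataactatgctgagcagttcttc
The TRBV26 clonotype had 16 and 1278 counts in Vsig4-/- libraries, against 73 and 16 counts in WT libraries, so 1 library held most of it. The TRBV23 clonotype had 26 and 16 counts in Vsig4-/- libraries, against 13 and 10 counts in WT libraries, an even spread. The second TRBV26 clonotype by the same rule, also with TRBJ2-1, had 2 and 21 counts in Vsig4-/- libraries, against 39 and 32 counts in WT libraries, and came from 5 different nucleotide sequences. The second of TRBV23, with TRBJ2-2, had 1 and 6 counts in Vsig4-/- libraries, against 3 and 17 counts in WT libraries.

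TRBV23 shared more clonotypes within than between genotypes in these 4 libraries. The 2 Vsig4-/- libraries shared 46 clonotypes (16.7% and 10.4% of each library's) and the 2 WT libraries 31 (12.4% and 7.54%), against 5 to 20 between a Vsig4-/- and a WT library (1.82% to 5.60%). For TRBV26 the libraries shared 174 within Vsig4-/- (14.4% and 9.72%) and 158 within WT (12.9% and 8.37%), against 85 to 166 between genotypes (6.31% to 10.3%). For TRBV20 the numbers were 5 within Vsig4-/- and 6 within WT, against 1 to 6 between. The 2 TRBV20 clonotypes that the rule names were both shared by the WT libraries, the one of 78 counts above and one with TRBJ2-7 at 1 count in WT 1 and 6 counts in WT 2. TRBV30 shared 2 clonotypes between the WT libraries, 1 with TRBJ2-2 at 4 counts in WT 1 and 1 count in WT 2 and 1 with TRBJ2-7 at 1 count in each, and none elsewhere. Some sharing was at low counts. The largest TRBV23 clonotype of Vsig4-/- 1 (585 counts) had 5 counts in Vsig4-/- 2, and that of WT 2 (143 counts) had 1 count in WT 1. Those of Vsig4-/- 2 and WT 1 were listed in their own library only. Sharing was not counted again without such entries, and carry-over between libraries was not tested. With 2 libraries per genotype the difference between sharing within and between genotypes was not tested.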

How the data were processed

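Bulk T-cell receptor libraries were reverse transcribed from total RNA of sorted liver CD8+ T cells, per the labels' protocols, and 1 table of TRB clonotypes per library was deposited (2 Vsig4-/-, 2 WT). Each deposited entry pairs CDR3 nucleotides with V, D and J hits and, per the file headers, a clone count, a whole number with no normalization. The sources used here do not say whether it counts reads or molecules, nor name the assembling program, and the submitters' processing notes name mm10. A second column, the deposited fraction, was that count divided by the sum of its table, as a check showed, and was not used further. The score deposited for CDR3 base quality (its minimum, 25 to 37) served as an alternative filter.

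Clonotypes were in frame (no stop or frame break in CDR3) or out of frame, and 27 member entries with a stop in CDR3 alone were left out. The first V hit was used where hits tied (17 member entries). No clonotype was listed more than once in a library. Genotype, frame and J comparisons used edgeR 4.0.16 quasi-likelihood tests with column totals as offsets over segments with at least 10 clonotypes or counts, and limma 3.58.1 for lengths, log2 odds of TRBJ2 (pseudocount 0.5) and log2 counts per clonotype, over segments with at least 10 in-frame clonotypes in every library. P-values were adjusted by Benjamini-Hochberg over all segments tested, at 0.05, in R 4.3.3. DESeq2 1.42.0 was an alternative. Each SE given with an edgeR test is the size of the log2 difference divided by the square root of its F statistic. At few clonotypes such an SE can be smaller than the one DESeq2 gives. Python 3.11.15, numpy 2.4.6, pandas 2.3.3, SciPy 1.17.1 and matplotlib 3.10.9 did the rest. The tests were tried on simulated counts. Comparisons of a segment with all others in length, J use and counts per clonotype were added after the data were seen. For each of the 5 members, the largest in-frame clonotype of each library and the 2 clonotypes in most libraries with the highest mean share are described. The members and these rules were chosen with earlier results of these data known.

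Replicate numbers were not used as pairs in the tests as reported, and no label says what the numbers share. Over 23 segments, deviations of same-numbered libraries correlated at 0.147 for in-frame clonotypes, −0.200 for in-frame counts and 0.219 for out-of-frame clonotypes. Yet same-numbered libraries were alike in size, with 47017 (Vsig4-/-) and 47558 (WT) in-frame clonotypes for number 1 and 70126 and 73769 for number 2. With 2 libraries per genotype, these values cannot decide whether same-numbered libraries were handled together.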

Additional observations from a re-analysis of the deposited data

Results flagged for a closer look

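The in-frame to out-of-frame ratio of TRBV30 was above that of its library in each WT library and slightly below it in each Vsig4-/- library. On the log2 scale the values were −0.14 and −0.31 in Vsig4-/- libraries, both under 0, and 1.49 and 0.65 in WT libraries, both above 0. The difference of the means was −1.291. It rests on 7 and 6 out-of-frame clonotypes in Vsig4-/- and 3 and 6 in WT libraries. The frame by genotype term of edgeR did not pass (adjusted p = 0.675, 0.340 to 0.942 over the alternatives), and the cause was not tested.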

How the results depend on the processing

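The frame comparison called 15 or 16 of the segments under every alternative run, TRBV23 and TRBV24 among them each time, and no member passed a comparison between genotypes under any alternative. The count of segments called between genotypes, 0 as reported, changed as follows. By in-frame clonotypes it was 0 to 13 when 1 library was left out (13 without Vsig4-/- 1), and TRBV20 then came closest of the members (adjusted p = 0.0512 without Vsig4-/- 1). By in-frame counts it was 0 to 5 with 1 library left out and 1 with DESeq2. By out-of-frame clonotypes it was 0 to 3, for the frame ratio 0 to 1, for length 0 to 2, for TRBJ2 joining 0 to 1 and for counts per clonotype 0 to 1 with 1 library left out. The number of segments that differed from all others in TRBJ2 joining, 17 as reported, was 10 to 20 with 1 library left out, with TRBV26 and TRBV30 called each time. Of the 48 pairs of a member with a J segment, 16 were called as reported, 5 to 14 with 1 library left out and 7 without entries of 1 count. The TRBV20 and TRBJ1-6 difference was not called without entries of 1 count or without WT 2, and the cause was not tested. Direction turned in 4 small differences that were not called. The log2 genotype difference of TRBV26 by in-frame clonotypes was 0.085 with TMM factors, 0.069 with DESeq2, 0.001 without entries at a trace of another library's count, and −0.017 to 0.016 with 1 library left out. The log2 frame difference of TRBV26 was −0.03 to 0.105 with 1 library left out. The log2 odds of TRBJ2 against all others were 0.135 for TRBV20 and −0.017 for TRBV23 without entries of 1 count, and −0.089 to 0.029 for TRBV20 with 1 library left out. By in-frame counts the median of all segments shifted by 0.22 (log2) with TMM factors and 0.32 with DESeq2, so count-based differences are relative to the scaling. With the replicate number as a block, 0 segments were called between genotypes by in-frame clonotypes, in-frame counts, out-of-frame clonotypes, length, TRBJ2 joining and counts per clonotype (the frame ratio, fitted with the library as a block, was not run with it), and likewise with the numbers crossed for in-frame counts, an alternative added after seeing the data. Depth limits TRBV24, with 9 in-frame clonotypes, and the out-of-frame values of TRBV30, with 22 clonotypes.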
